A study of Mus musculus with 48 samples.

Results

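A group of 6 genes that encode subunits of the receptors for the inhibitory transmitter GABA was followed, by the rows of the deposited gene and exon tables that carry their Ensembl identifiers. They were the beta subunits Gabrb1 and Gabrb2 and the gamma subunits Gabrg1 and Gabrg3 of the GABA-A receptor, and the GABA-B receptor subunits Gabbr1 and Gabbr2. These are 6 of 37620 genes in the gene table, and all 6 passed the filter on low values, which kept 15350 genes. Poly(A) RNA-seq had been run on nucleus accumbens shell, a part of the ventral striatum, from HS-CC mice (heterogeneous stock-collaborative cross, an outbred stock) after 4 generations of selection for ethanol preference. There were 12 mice in each of 4 groups: females and males of the line selected for High preference, and females and males of the Low line. All groups share the stock, the tissue and the protocol, and the labels give no age, family or ethanol exposure. The labels name no replicate lines, so a line difference by selection and one by drift cannot be told apart, and the p-values rest on the spread among these 48 animals alone.

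GABA-A receptors are chloride channels built from several subunits around a pore, most often a pair of alpha, a pair of beta and a single gamma or delta subunit; the beta subunits help form the GABA binding site, and the gamma subunits contribute to the benzodiazepine site and to placement at synapses. GABA-B receptors are G-protein-coupled: Gabbr1 binds GABA, Gabbr2 carries the receptor to the surface and couples to the G protein, and both are needed. Most neurons of the shell are themselves GABAergic spiny projection neurons. Their marker Ppp1r1b (DARPP-32), which is shared by the whole striatum and does not tell shell from core, averaged 28392 deposited units over all mice. Deposited values are read counts that the authors normalised and rounded, here called units, and column totals ran from 13579559 to 14561911 units. In bulk tissue, fewer cells of a type and less RNA per cell cannot be told apart.

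The 4 GABA-A genes are relatives with matching exon lengths, which gives stretches of equal size, though not at equal distance from the transcript end. One coding exon is 138 bases long in each of them, and its sequence is shown because the exon values discussed next rest on it. The letters are from GENCODE M21 transcripts on GRCm38, read in the gene's direction, and capitals mark the bases that are the same in all 4 genes. The positions are chr5:72108308-72108445 on the plus strand, chr11:42591858-42591995 on the plus strand, chr5:70778062-70778199 on the minus strand and chr7:56773237-56773374 on the minus strand.
Gabrb1: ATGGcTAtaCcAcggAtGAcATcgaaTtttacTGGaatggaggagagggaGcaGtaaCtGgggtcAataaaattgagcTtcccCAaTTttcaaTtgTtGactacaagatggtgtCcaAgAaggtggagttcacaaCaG
Gabrb2: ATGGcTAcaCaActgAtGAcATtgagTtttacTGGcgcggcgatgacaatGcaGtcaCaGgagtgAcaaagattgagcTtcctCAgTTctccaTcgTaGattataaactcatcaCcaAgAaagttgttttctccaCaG
Gabrg1: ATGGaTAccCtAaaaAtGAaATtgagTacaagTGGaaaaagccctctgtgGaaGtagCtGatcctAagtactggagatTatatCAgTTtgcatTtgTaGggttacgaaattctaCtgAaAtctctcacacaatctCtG
Gabrg3: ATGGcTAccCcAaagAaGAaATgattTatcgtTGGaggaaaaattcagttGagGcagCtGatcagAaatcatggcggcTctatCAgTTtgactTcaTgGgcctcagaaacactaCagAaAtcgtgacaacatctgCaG
Gabrb1 and Gabrb2 shared 69.6% of these bases and Gabrg1 and Gabrg3 60.9%, while the pairs of a beta and a gamma gene shared 39.9% to 44.2%. In all, 35 of the 138 bases were the same in the 4 genes.

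Per length, Gabbr1 was the most abundant of the 6 transcripts in every mouse. Summed over the listed exons and divided by their length, Gabbr1 averaged 1483.9 ± 140 units per kb (SD, n = 48), Gabrb2 248 ± 27.9, Gabbr2 119 ± 28.5, Gabrg1 112 ± 22.0, Gabrg3 80.0 ± 17.6 and Gabrb1 17.9 ± 4.90 units per kb. Gabbr1 thus made up 72.0% ± 1.96 of the summed level of the 6, Gabrb2 12.0% ± 1.10 and Gabrb1 0.877% ± 0.266. Gabbr1 was first, Gabrb2 next and Gabrb1 last in all 48 mice, while Gabbr2, Gabrg1 and Gabrg3 changed places between them; the means of Gabbr2 and Gabrg1 differed by less than their SDs. Gabbr2 stood above Gabrg1 and Gabrg1 above Gabrg3 in 22 mice, and Gabrg1 above Gabbr2 above Gabrg3 in 21. The shares were close in the lines: Gabbr1 held 71.8% ± 1.96 in High mice and 72.3% ± 1.97 in Low mice, Gabrb2 12.0% ± 1.21 in High mice and 12.0% ± 1.01 in Low mice, and Gabrg3 4.18% ± 0.554 in High mice and 3.59% ± 0.926 in Low mice (SD, n = 24 each).

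This order depended on the last exon. The exon table gives 1 row per exon, named by its start on mm9, and lengths are those of the matching GENCODE M21 exons, which may not be the annotation the authors used. The last exon, which carries the 3′ untranslated region, held 98.0% ± 1.40 of the exon value of Gabrb2, 92.2% ± 2.22 of Gabrg3, 86.3% ± 4.46 of Gabrg1, 84.0% ± 7.64 of Gabbr2, 79.8% ± 7.28 of Gabrb1 and 49.0% ± 5.48 of Gabbr1 (SD, n = 48). For 12347 tested genes with 4 or more listed exons the median share was 55.3%, and 98.8% of them had a smaller share than Gabrb2. The last exon of Gabrb1, 12573 bases long in GENCODE M21, averaged 15.8 units per kb, less than its other exons together. The last place of Gabrb1 over all exons rests on that length. A shorter last exon in the authors' annotation would raise its level per kb. Over all exons but the last, Gabbr1 still led with 1065.8 ± 202 units per kb, followed by Gabrg1 with 49.1 ± 21.8, Gabrb1 with 40.3 ± 12.2, Gabbr2 with 37.7 ± 31.3, Gabrg3 with 20.6 ± 8.20 and Gabrb2 with 8.19 ± 6.42. Gabrb2 therefore had the lowest average when the last exon was left out. Its row 6, with 2211 of the 3875 bases left, may be shorter in the authors' annotation; without that row, an alternative chosen after the data were seen, Gabrb2 averaged 15.4 ± 13.3 units per kb, less than 1 SD below Gabrg3. On the 138-base exon shown above, which was compared after the values had been seen, Gabrg1 averaged 9.65 ± 5.81 units, Gabrb1 5.19 ± 2.99, Gabrb2 3.06 ± 3.19 and Gabrg3 2.44 ± 1.90. A second shared coding exon, of 153 bases, gave the same order, with 14.1 ± 5.66 units for Gabrg1, 5.92 ± 3.38 for Gabrb1, 3.81 ± 3.91 for Gabrb2 and 3.19 ± 2.70 for Gabrg3. These exon values are small, and neighbours in this order differed by less than the larger of their SDs, except Gabrg1 and Gabrb1 on the 153-base exon. The shared exons lie before last exons of 12573 bases in Gabrb1, 2485 in Gabrb2, 3245 in Gabrg1 and 8230 in Gabrg3 (GENCODE M21). Most of the exon value of these genes lay in the last exon, so equal length alone does not make levels comparable between genes.

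**Figure D1:**
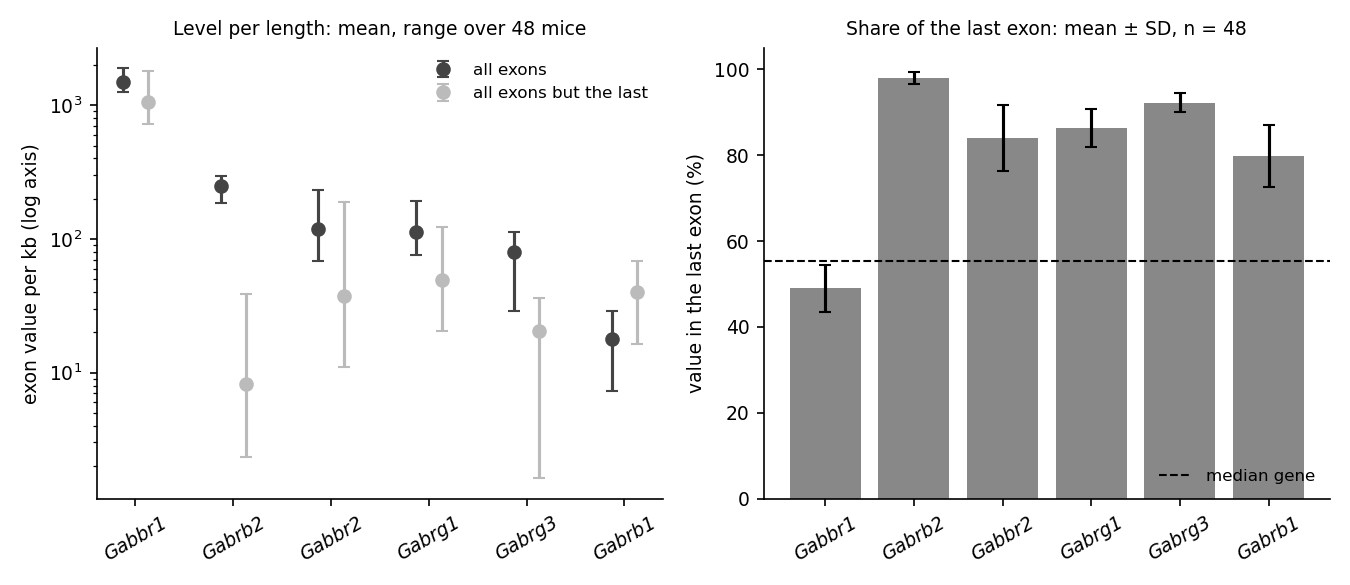
Left, exon value per kb (log axis) of each subunit over all exons and over all exons but the last, as the mean with the lowest and highest of 48 mice; right, the mean share of the exon value in the last exon (bars, ± SD, n = 48) with the median gene dashed. Gabrb2 falls from 248 to 8.19 units per kb when its last exon is left out, and only Gabbr1 lies below the median share of 55.3%.

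Among the beta subunits, Gabrb2 had the higher level per length over all exons, and Gabrb1 over all exons but the last and on both exons of equal length. The gene value of Gabrb2 varied less from mouse to mouse. The gene lies on chromosome 11 (plus strand, first listed exon start 42233259, mm9). It ran from 1246 through a median of 1594.5 to 1893 units in High mice and from 1182 through 1603 to 1785 units in Low mice. The lines overlapped, since 12 of the 24 High mice exceeded the median of the Low line, and the log2 difference High minus Low was 0.0244 ± 0.0484 (SE), with a 95% interval of -0.0729 to 0.122 (limma, p = 0.616, adjusted p = 0.924). Its within-group SD of 0.169 on the log2 scale was larger than that of 51.7% of the 1000 tested genes nearest to it in level.

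Gabrb1 had the lowest mean gene value of the 6, not divided by length, and its values spread farther in High mice. The gene lies on chromosome 5 (plus strand, first listed exon start 72091171, mm9). It ran from 101 through a median of 232 to 394 units in High mice and from 159 through 256 to 342 units in Low mice. The 4 lowest mice were all High (101, 108, 132 and 142 units), and so were the 2 highest (390 and 394 units), so that the Low mice lay within the High range. The log2 difference was -0.139 ± 0.119, with a 95% interval of -0.378 to 0.0995 (limma, adjusted p = 0.790). The mean absolute deviation from the group median was 0.399 log2 units in High mice and 0.233 in Low mice, a difference of 0.166 ± 0.0742 (limma on the deviations, p = 0.0267, adjusted p = 0.998). Its within-group SD of 0.427 exceeded that of 91.9% of like-level genes.

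The gene whose level followed Gabrb1 most closely over the mice was its neighbour Commd8, which encodes a COMM domain protein that works with the endosomal sorting machinery. Commd8 is read from the opposite strand, and its lowest listed exon start lies 20535 bases beyond the start of the last Gabrb1 exon, which is 12573 bases long in GENCODE M21. On log2 values centred on the group means, r was 0.83 and rho 0.78 over 48 mice, as a description of the closest of 15349 other tested genes. By exon, r was 0.82 between the last exons of the 2 genes and 0.71 between all but the last exon of both. It was 0.51 for the last exon of either gene with the other exons of its neighbour. Within Gabrb1 the last exon and the other exons had r = 0.123. The library last-exon share, described below, was not removed from these values, so they do not show that the relation holds along both genes. The 4 mice with the least Gabrb1 had 401, 331, 398 and 376 units of Commd8, and the 6 mice with the most Gabrb1 had 682 to 847 units. Commd8 averaged 641 ± 177 units in High mice and 680 ± 98.6 units in Low mice (SD, n = 24 each; limma, log2 difference -0.126 ± 0.0943, adjusted p = 0.746). The strand setting of the authors' counting is not given in the sources used here, so reads from either strand could not be told apart.

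Among the gamma subunits, the line difference of Gabrg1 was small against its spread. In the brain Gabrg1 is known from amygdala neurons and from glia. The gene lies on chromosome 5 (minus strand, 3′-most listed exon start 71142286, mm9). It ran from 400 through a median of 504.5 to 908 units in High mice and from 363 through 509.5 to 733 units in Low mice. The lines covered much the same range, with a log2 difference of -0.0322 ± 0.0735 and a 95% interval of -0.180 to 0.115 (limma, adjusted p = 0.938). It averaged 508 ± 85.2 units in females and 564 ± 116 units in males (SD, n = 24 each), and 8 of 24 females lay above the male median. The log2 difference females minus males was -0.142 ± 0.0735 (limma, p = 0.0588, adjusted p = 0.982).

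Gabrg3 gave the largest line difference of the 6 genes in size, but it did not pass the adjusted threshold. The gene lies on chromosome 7 (minus strand, 3′-most listed exon start 63971835, mm9). High females ran from 800 through a median of 1011 to 1341 units and High males from 755 through 1060.5 to 1214, against 345 through 854.5 to 1203 in Low females and 432 through 960 to 1232 in Low males. The groups overlapped, and 19 of the 24 in the High line exceeded the median of the Low line, while 4 Low mice lay below the lowest High mouse. Those were 3 Low females with 345, 478 and 484 units and 1 Low male with 432 units. The log2 difference was 0.286 ± 0.101, a 1.22-fold higher level in High mice with a 95% interval of 0.0835 to 0.489 on the log2 scale (limma, p = 0.0066, adjusted p = 0.284).
It was 0.387 ± 0.143 in females (limma, p = 0.00907, adjusted p = 0.849) and 0.185 ± 0.143 in males (limma, p = 0.201, adjusted p = 0.811), and the test of the difference between the genders gave 0.203 ± 0.202 (limma, p = 0.319). Gabrg3 was also the more uneven in Low mice, with a mean absolute deviation of 0.158 log2 units in High mice and 0.300 in Low mice (limma on the deviations, difference -0.142 ± 0.0625, p = 0.0245, adjusted p = 0.998). Its within-group SD of 0.364 exceeded that of 95.8% of like-level genes. Over all exons, the per-length ratio of Gabrg3 to Gabrg1 averaged 0.786 in High mice (log2 SD 0.351) and 0.629 in Low mice (log2 SD 0.473) as geometric means, with n = 24 each. Markers of oligodendrocytes, the myelin-forming cells, tended to be lower in High mice, though none passed the adjusted threshold. At an unadjusted p under 0.05, 8 of 9 were lower in High mice, with 0 called (limma). Of all 15350 tested genes, 690 were lower at that limit. Within females 8 of 9 were lower at that limit and within males 0 of 9, and 0 of 9 were higher in High mice in either gender. The marker sum ran from 9079 to 24521 units in High mice and from 13439 to 24966 units in Low mice. With the marker mean as a covariate the line difference of Gabrg3 was 0.277 ± 0.109 (limma, p = 0.0146, adjusted p = 0.241). Over 48 mice, centred on group means, Gabrg3 and the marker mean had r = -0.03 (permutation p = 0.835, adjusted p = 0.906). Some other marker lists also lay to 1 side by line, with 0 called. Higher in High mice were 7 of 7 astrocyte, 5 of 5 D1 spiny neuron and 0 of 6 D2 spiny neuron markers. So were 2 of 3 pyramidal, 2 of 5 pallidal, 2 of 7 medium spiny neuron and 2 of 5 microglia markers, and 7446 of all 15350 tested genes.

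An inner exon row of Gabrg3 separated a few Low mice from all others. This row, the fourth from the 5′ end (start 64433752, mm9; 1356 bases in GENCODE M21), is the largest after the last exon and averaged 43.5 ± 13.5 units in High mice and 35.6 ± 20.8 units in Low mice (SD, n = 24 each). It ran from 22 through a median of 43.5 to 66 units in High mice and from 1 through 33 to 69 units in Low mice. No High mouse and 4 Low mice (2 females and 2 males) had under 10 units, at 1, 2, 3 and 8, and the next lowest mouse had 18. Only 1 of these 4, the Low female with 345 units of Gabrg3, was also among the 4 Low mice with the lowest gene values. Its usage relative to the other exons did not pass the test (limma diffSplice, log2 difference 0.474, p = 0.119, adjusted p = 1). The limit of 10 units was set after the values were seen. In GENCODE M21 the longest exon of Gabrg3-201, a protein-coding transcript of 4 exons, also has 1356 bases. The exon table does not tell which transcripts the reads of this row came from, so the row may not stand for full-length Gabrg3.

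**Figure D2:**
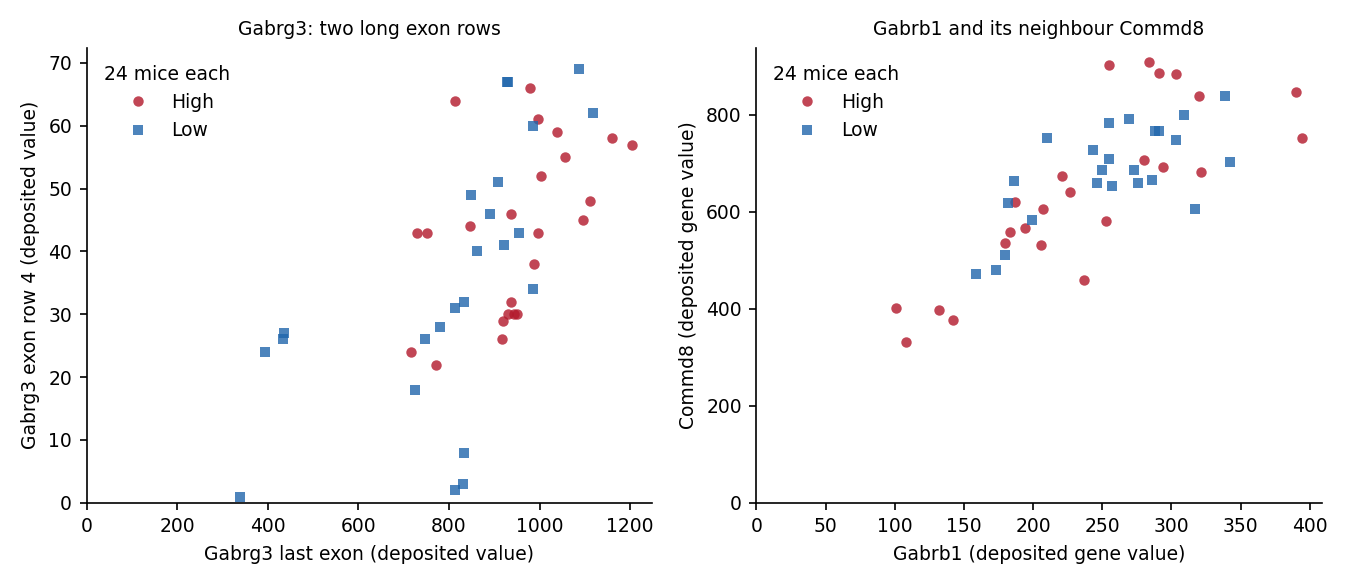
Left, the 4th exon row of Gabrg3 against its last exon in deposited units, 1 point per mouse; right, Commd8 against Gabrb1 in deposited gene units (24 High mice as circles, 24 Low mice as squares). On the left 4 Low mice lie at 8 units or below on the inner row; on the right the mice spread along 1 band from 101 to 394 units of Gabrb1.

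Gabbr1 had a higher mean value, not divided by length, than 99.4% of tested genes. The gene lies on chromosome 17 (plus strand, first listed exon start 37182911, mm9). It ran from 9813 through a median of 11217 to 14696 units in High mice and from 9857 through 11219 to 13751 units in Low mice. The medians were nearly equal, and the log2 difference of 0.0158 ± 0.0398 had a 95% interval of -0.0643 to 0.0958 (limma, adjusted p = 0.946). Its within-group SD was 0.134 on the log2 scale, and 22.8% of like-level genes had a smaller one.

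Gabbr1 makes a long protein form, 1a, whose N-terminal sushi domains are encoded by the first exons, and a shorter form, 1b, that starts farther downstream. The exon rows did not run evenly along the gene. Row 4 (start 37185366, mm9; 1047 bases in GENCODE M21) held 1268.5 ± 99.0 units in High mice and 1265.3 ± 95.8 units in Low mice (SD, n = 24 each), which was 11.1% ± 1.17 of the gene (n = 48). Row 5 averaged 10.3 ± 5.55 units and row 6, which covers the annotated 1b start, 84.9 ± 45.3 units (SD, n = 48). Per length, rows 1 to 3 together averaged 508 units per kb, with 190 for row 1, 384 for row 2 and 1177.4 for row 3. Row 4 averaged 1210 units per kb, close to row 3, while row 5 averaged 71.3 and row 6 160 units per kb. In GENCODE M21 row 4 is the last exon of Gabbr1-202 and Gabbr1-209, a pair of protein-coding transcripts that read on past the usual end of the exon for 218 coding bases to a stop codon of their own. The end of the exon is shown with that read-on, in the gene's direction (chr17:37048567-37048824, GRCm38, plus strand, from Gabbr1-202), in lower case for the last 40 bases shared with the full-length transcripts and in capitals for the read-on with its stop codon.
Gabbr1-202: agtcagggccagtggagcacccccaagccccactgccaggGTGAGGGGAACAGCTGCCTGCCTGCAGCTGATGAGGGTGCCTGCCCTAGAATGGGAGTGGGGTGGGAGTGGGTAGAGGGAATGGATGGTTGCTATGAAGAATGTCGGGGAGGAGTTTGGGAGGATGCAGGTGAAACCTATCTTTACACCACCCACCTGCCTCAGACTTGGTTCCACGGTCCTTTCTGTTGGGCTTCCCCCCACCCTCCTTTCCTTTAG
The share of row 4 was 11.0% ± 1.08 in High mice and 11.1% ± 1.28 in Low mice. The exon table does not split the shared part of row 4 from the read-on, so the level of this shorter form was not measured apart from full-length Gabbr1.

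Row 4 also behaved unlike the rows behind it from mouse to mouse. Over 48 mice it ran from 1103 to 1491 units, while rows 7 to 11 together ran from 233 to 1979 units. Rows 7 to 11 moved with how far the reads of a whole library lay toward transcript ends, taken as the median last-exon share over 12341 other genes, which ran from 43.4% through 57.1% to 63.5% in High libraries and from 48.1% through 55.1% to 63.3% in Low libraries. Centred on group means, rows 7 to 11 fell as that share rose, with r = -0.97 and rho = -0.96 (permutation tests over 48 mice, p = 1e-05 each, the smallest the resamples can give; adjusted p = 4e-05 over 8 relations), and r was -0.96 without the 2 mice farthest from the median share. For row 4 r was 0.36 and rho 0.37 (permutation p = 0.0113 and 0.00959, adjusted p = 0.0181 and 0.0153; r = 0.34 without 2 mice). The gene total of Gabbr1 followed the share with r = -0.70 and rho = -0.64 (permutation p = 1e-05 each, adjusted p = 4e-05; r = -0.61 without 2 mice). With the library share as a covariate, chosen after the data had been seen, the line difference of Gabbr1 was 0.0261 ± 0.0292 (limma, adjusted p = 0.766).

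**Figure D3:**
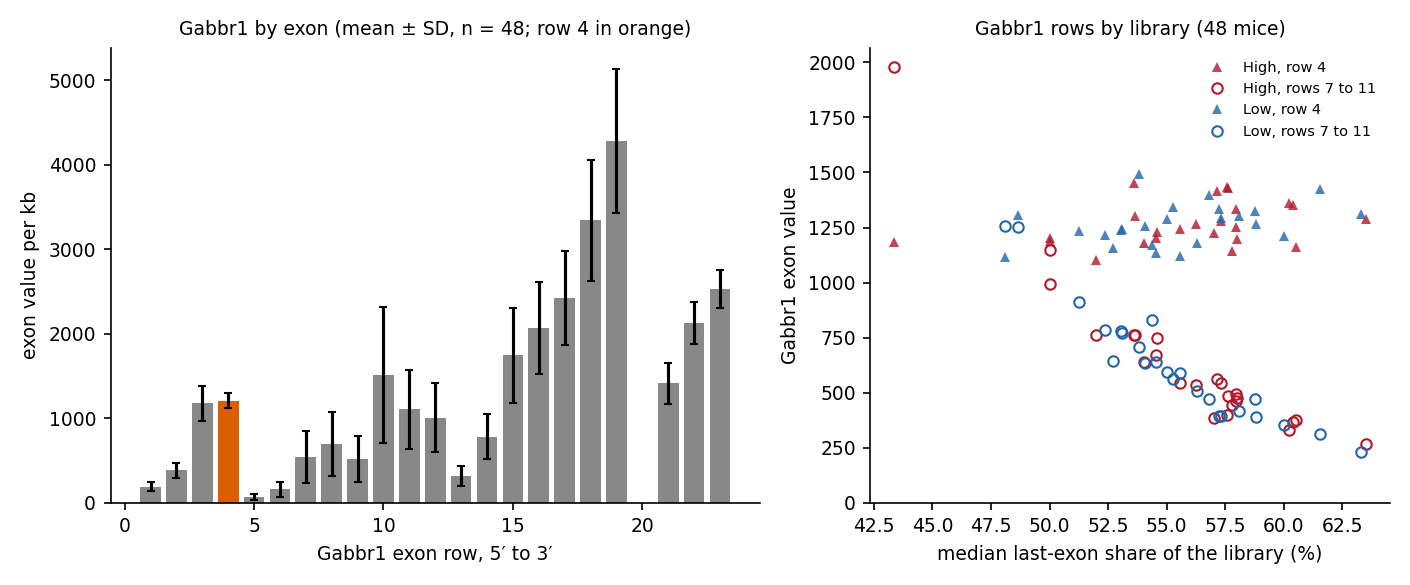
Left, exon value per kb of Gabbr1 by exon row from 5′ to 3′ (bars, mean ± SD, n = 48; row 4 in orange; row 20 matched no annotated exon and is not drawn); right, units of row 4 (triangles) and of rows 7 to 11 summed (circles) against the median last-exon share of the library, 1 pair of points per mouse. Row 4 stays between 1103 and 1491 units while rows 7 to 11 span 233 to 1979.

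Gabbr2 was less abundant than Gabbr1 and more uneven, with its highest values in males. The gene lies on chromosome 4 (minus strand, 3′-most listed exon start 46675190, mm9). High females ran from 458 through a median of 667 to 825 units and High males from 535 through 715 to 1322, against 477 through 636 to 783 in Low females and 394 through 647 to 1216 in Low males. The lines overlapped, with a log2 difference of 0.0615 ± 0.0833 and a 95% interval of -0.106 to 0.229 (limma, adjusted p = 0.882). Females averaged 631 ± 89.9 units and males 731 ± 203 units (SD, n = 24 each), and 6 of 24 females lay above the male median. The log2 difference females minus males was -0.178 ± 0.0833 (limma, p = 0.0372, adjusted p = 0.982).
The highest value, 1322 units, came from High male replicate 1, the library that correlated least with the others (median r 0.967, against 0.976 for the median library) and that had the lowest last-exon share, 43.4%. Without it the gender difference was -0.141 ± 0.0767 (limma, p = 0.0731, adjusted p = 0.948), and with the library last-exon share as a covariate it was -0.188 ± 0.0714 (limma, p = 0.0113, adjusted p = 0.846). The second highest, 1216 units, came from Low male replicate 6, which had the highest summed value of the pyramidal neuron markers tested, 4952 units; High male replicate 1 had the second highest, 2830 units. Pyramidal neurons belong to cortex and not to the shell; 3 of the 8 markers listed passed the filter (Slc17a7, Rasgrf2 and Cux2), and their sum ran from 415 to 2830 units in High mice and from 429 to 4952 units in Low mice. Over 48 mice Gabbr2 followed the mean of these markers with r = 0.47 and rho = 0.28 (permutation p = 0.00102 and 0.0581, adjusted p = 0.0122 and 0.164 over 36 relations), and r was 0.15 without the 2 mice farthest from the median marker level, so that the relation rests on those mice. The part of the pyramidal markers in the gender difference was not tested.

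Over all exons, the per-length ratio of Gabbr1 to Gabbr2 averaged 12.6 in High mice (log2 SD 0.239) and 13.0 in Low mice (log2 SD 0.254) as geometric means, with n = 24 each. It ran from 8.21 to 16.8 in High mice and from 7.44 to 18.5 in Low mice. The ratio depends on the exons used, since over all exons but the last Gabbr1 averaged 1065.8 and Gabbr2 37.7 units per kb (n = 48). The subunits are obligate partners at the cell surface. Their levels moved together from mouse to mouse, and each also moved with many other genes. On values centred on group means, r was past 0.5 in size for 20.9% of all other tested genes with Gabbr1 and 11.0% with Gabbr2. Centred on group means, r was 0.63 and rho 0.57 over 48 mice (permutation p = 1e-05 and 6e-05, adjusted p = 0.00015 and 0.0009 over 15 pairs), and r was 0.52 without the 2 mice farthest from the median of Gabbr1. With the library last-exon share removed from both, r was 0.42 and rho 0.43 (permutation p = 0.0028 and 0.00279, adjusted p = 0.0103 and 0.0139). The promoter windows of the pair are shown as a description, with none at the annotated 1b start of Gabbr1. Whether these windows have a part in the relation was not tested. They are RefSeq windows on GRCm38.p6, 250 bases before to 50 bases after the start, chr17:37045716-37046015 on the plus strand and chr4:46991665-46991964 on the minus strand, read in the gene's direction with GC boxes in capitals.
Gabbr1: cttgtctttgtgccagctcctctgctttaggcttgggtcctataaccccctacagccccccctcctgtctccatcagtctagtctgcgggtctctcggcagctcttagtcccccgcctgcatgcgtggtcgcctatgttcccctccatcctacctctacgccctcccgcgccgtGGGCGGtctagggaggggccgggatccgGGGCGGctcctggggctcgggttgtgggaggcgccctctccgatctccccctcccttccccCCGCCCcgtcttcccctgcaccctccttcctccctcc
Gabbr2: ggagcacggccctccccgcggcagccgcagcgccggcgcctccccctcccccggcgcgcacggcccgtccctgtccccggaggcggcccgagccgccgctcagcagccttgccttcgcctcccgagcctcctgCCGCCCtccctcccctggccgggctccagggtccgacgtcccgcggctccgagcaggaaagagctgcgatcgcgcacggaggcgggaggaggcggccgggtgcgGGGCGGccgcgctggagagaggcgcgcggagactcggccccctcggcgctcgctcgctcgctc
GC boxes were searched as GGGCGG or its reverse complement CCGCCC, and the Gabbr1 window held 3 and the Gabbr2 window 2 of them. Of all 32851 windows, 35.7% held at least 1. The Gabbr2 window had 46 CG steps, more than 98.4% of all windows, and the Gabbr1 window 18, more than 70.3%. Such a match describes the letters and does not show that a factor binds there.

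**Figure D4:**
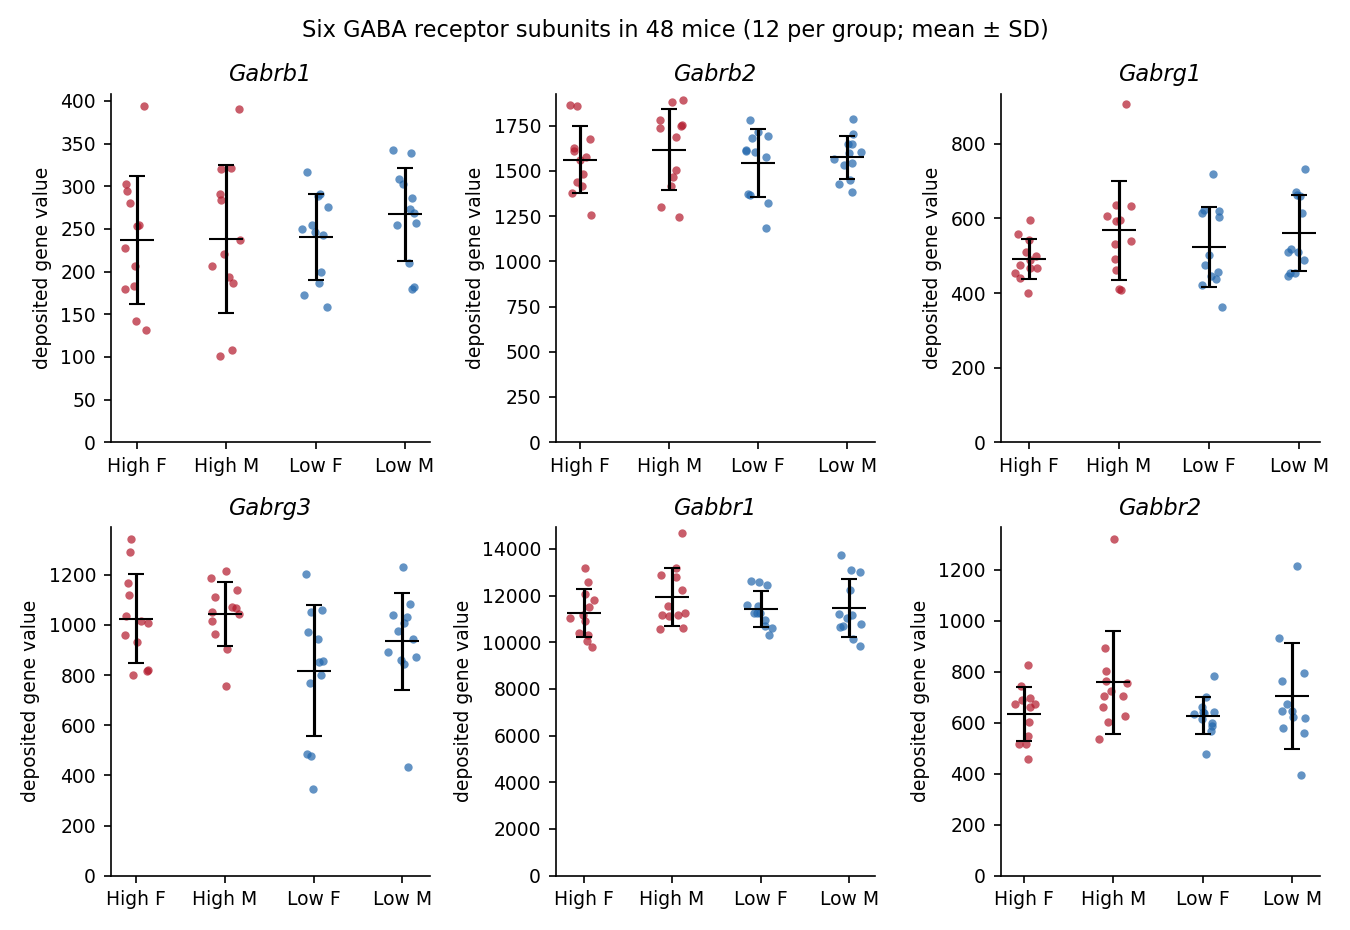
Deposited gene value of each subunit by group, High females and High males left of Low females and Low males (points, 12 mice per group; bars, mean ± SD; axes start at 0). The groups overlap for every subunit; 4 Low mice lie below all High mice for Gabrg3, and the highest Gabbr2 values, 1322 and 1216, are a High and a Low male.

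For the line difference in limma, 0 of 6 subunits passed an adjusted p under 0.05, where 0.28% of all tested genes did. At an unadjusted p under 0.05 there was 1 of 6, Gabrg3, against 9.07% of all genes. None of the 6 was called within females (0.0261% of all genes called; 1 of 6, Gabrg3, at unadjusted p under 0.05, against 4.68%), within males (0% called; 0 of 6 against 6.93%) or for the line by gender interaction (0% called; 0 of 6 against 2.4%). For the gender difference 0 of 6 were called (0.0782% of all genes), with 1 of 6, Gabbr2, at an unadjusted p under 0.05 (4.21% of all genes). All 6 averaged lower in females than in males, with log2 differences females minus males from -0.178 to -0.0407, and their confidence intervals covered 0 except for Gabbr2. Of all 15350 tested genes, 7318 had a difference above 0. The 6 directions are not separate results, since some of these genes moved together from mouse to mouse. For the spread between mice, 0 of 6 differed by line at an adjusted p (0.0586% of all genes), and 2 of 6, Gabrb1 and Gabrg3, did so at an unadjusted p (3.97%); by gender 0 of 6 did at an adjusted p (0% of all genes) or at an unadjusted p (3.87%).
Exon usage was called for 0 of 6 genes (limma diffSplice, Simes p per gene; 0.51% of 14702 genes were called), and 1 of 6, Gabrb1, had an unadjusted p under 0.05, against 5.32%. By gender 0 of 6 were called (0.17%), and 0 of 6 had an unadjusted p under 0.05 (3.96%). In Gabrb1 the first exon row (start 72091171, mm9) averaged 4.21 ± 2.13 units in High mice and 3.29 ± 2.42 units in Low mice (usage log2 difference 0.698, p = 0.00252, adjusted p = 0.724). Of 79 exon rows tested in the 6 genes, 3 had an unadjusted p under 0.05, against 2.91% of all exon rows, and these values are of a few units.

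Gabrb2, Gabrg1 and Gabrg3 each moved with some of the other GABA-A subunits from mouse to mouse, and Gabrb1 passed the test with none of those tested. The alpha subunits complete the channel and set much of its pharmacology; some of the genes lie in clusters, Gabrg1, Gabra2, Gabra4 and Gabrb1 on chromosome 5, and Gabra5 and Gabrg3 on chromosome 7. Relations with the 7 other GABA-A subunits tested were computed after the nearest genes had been seen, and 18 of 42 passed an adjusted permutation p under 0.05, all of them positive. Gabrb2 followed Gabra4 with r = 0.72 and rho = 0.72 (permutation tests over 48 mice, p = 1e-05 each, adjusted p = 0.00014 for r and 0.00021 for rho), and r was 0.73 without the 2 mice farthest from the median of Gabrb2. Gabrg1 followed Gabra2 with r = 0.59 and rho = 0.55 (permutation p = 4e-05 and 9e-05, adjusted p = 0.00028 and 0.00084; r = 0.50 without 2 mice). Gabrg3 followed Gabra2 with r = 0.38 and rho = 0.39 (permutation p = 0.0084 and 0.00722, adjusted p = 0.022 and 0.0217; r = 0.32 without 2 mice). For Gabrg3 and Gabra5, which share a cluster, r was 0.14 (permutation p = 0.338, adjusted p = 0.474). Gabrb1 passed with 0 of 7, and with its cluster mate Gabra4 r was -0.27 and rho -0.28 (permutation p = 0.0677 and 0.0502, adjusted p = 0.118 and 0.0958).
Gabbr1 passed with 6 of 7 subunits and Gabbr2 with 4 of 7. Such relations are read against how many genes move with each member: r was past 0.5 in size for 20.9% of all other tested genes with Gabbr1, 15.8% with Gabrb2, 11.0% with Gabbr2, 10.7% with Gabrg1, 2.76% with Gabrb1 and 0.28% with Gabrg3. This limit is stricter than the test, which Gabrg3 with Gabra2 passed at r = 0.38. The share of all genes that would pass the test was not computed, so the counts of passing relations have no like background. The library last-exon share was not removed from the relations with the other subunits. Among the 15 pairs of the 6 genes, 4 passed an adjusted p under 0.05 and all were positive: Gabbr1 with Gabbr2, given above, and 3 more. Gabrb2 followed Gabbr2 with r = 0.50 and rho = 0.52 (permutation p = 0.00033 and 0.00016, adjusted p = 0.00247 and 0.0012; r = 0.42 without 2 mice) and Gabbr1 with r = 0.44 and rho = 0.43 (permutation p = 0.00161 and 0.0024, adjusted p = 0.00805 and 0.009; r = 0.39 without 2 mice). Gabrg1 followed Gabbr2 with r = 0.38 and rho = 0.43 (permutation p = 0.00676 and 0.00214, adjusted p = 0.0253 and 0.009; r = 0.38 without 2 mice). By r, neither Gabrb1 nor Gabrg3 passed with any other member; by rho, Gabrg3 passed with Gabrb2 (rho = 0.36, permutation p = 0.0114, adjusted p = 0.0342; r = 0.28, adjusted p = 0.107). With the library last-exon share removed, 7 of the 15 pairs passed by r, and Gabrb1 was then in 2 of them. Its r with Gabbr2 was then 0.46 (rho = 0.27; permutation p = 0.00102 and 0.0614, adjusted p = 0.0103 and 0.115; r = 0.38 without 2 mice), against 0.11 before. Its r with Gabrb2 was 0.34 (rho = 0.19; permutation p = 0.0184 and 0.201, adjusted p = 0.0395 and 0.274; r = 0.28 without 2 mice), against 0.17 before.

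**Figure D5:**
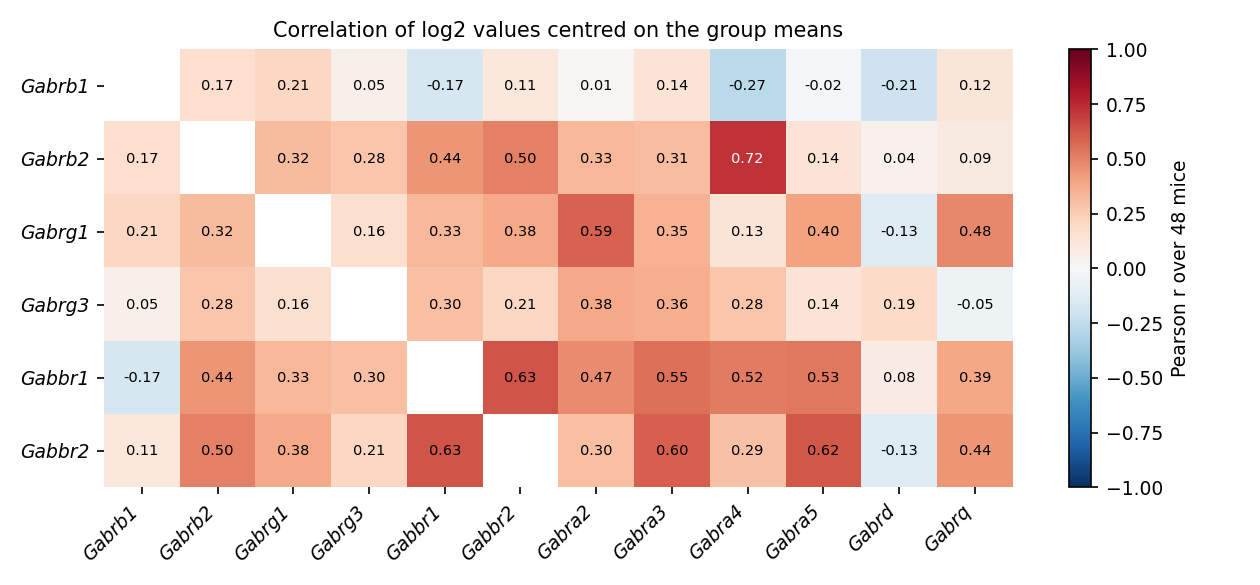
Pearson r between the 6 subunits (rows) and the 6 subunits and 6 other GABA-A subunits (columns), on log2 values centred on the group means of 48 mice; colour runs from blue at -1 to red at 1. Gabrb2 with Gabra4 (0.72) is the deepest red, the diagonal is blank, and no value in the Gabrb1 row is past 0.27 in size.

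With the marker means of other cell types, 5 of 36 relations passed an adjusted p under 0.05. The share of all genes that would pass with these markers was not computed, and the library last-exon share was not removed from these relations. Gabrb2 followed the astrocyte markers with r = 0.51 and rho = 0.50 (permutation p = 0.00027 and 0.00041, adjusted p = 0.00972 and 0.0148; r = 0.52 without 2 mice) and the markers of D1 spiny neurons with r = 0.45 and rho = 0.46 (permutation p = 0.00096 and 0.00089, adjusted p = 0.0122 and 0.016; r = 0.46 without 2 mice). Gabrg1 followed the astrocyte markers with r = 0.42 and rho = 0.41 (permutation p = 0.00329 and 0.00397, adjusted p = 0.0237 and 0.0476; r = 0.38 without 2 mice). Gabrb1 did so with r = 0.42 (permutation p = 0.00299, adjusted p = 0.0237), but rho was 0.34 (permutation p = 0.017, adjusted p = 0.103) and r was 0.28 without 2 mice. The fifth was Gabbr2 with the pyramidal markers, given above. Gabrg3 passed with none of the 6 lists. All 7 astrocyte markers were tested, and their sum ran from 6445 to 11434 units in High mice and from 6568 to 10641 units in Low mice; the part of these cells in the levels of the subunits was not tested.

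Among the other genes of GABA transmission, none was called for the line difference. Of all 15350 tested genes, 7446 had a line difference above 0, that is, higher in High mice. Of 7 other GABA-A subunits tested, 3 were higher and 4 lower in High mice with a median log2 difference of -0.00578, beside -0.00281 over all tested genes. The smallest p-values were those of Gabra3, an alpha subunit, at 863 ± 102 units in High mice and 769 ± 116 units in Low mice (limma, log2 difference 0.171, p = 0.00382, adjusted p = 0.242), and Gabrd, the delta subunit of extrasynaptic receptors, at 2149 ± 340 units in High mice and 2472 ± 430 units in Low mice (-0.197, p = 0.0053, adjusted p = 0.264). Of 8 genes of GABA synthesis, transport and breakdown, 7 were higher in High mice (median 0.0664), none past the adjusted threshold. The smallest p-values were those of Slc6a13, the transporter GAT2, at 54.3 ± 15.4 units in High mice and 43.5 ± 12.6 units in Low mice (limma, 0.281, p = 0.00762, adjusted p = 0.299), and of Aldh5a1, the last enzyme of GABA breakdown (limma, 0.0692, adjusted p = 0.599).
Of 21 genes of receptor clustering and trafficking, 12 were higher (median 0.00864), with the smallest p-values for Plcl2 (limma, 0.126, adjusted p = 0.413) and Hap1 (-0.106, adjusted p = 0.62). Of 7 GABA-B partners and effectors tested, 4 were higher (median 0.0115). Kctd8, an auxiliary subunit that shapes the G-protein response, stood at 492 ± 134 units in High mice and 586 ± 129 units in Low mice (limma, -0.257, p = 0.0166, adjusted p = 0.381), and Kcnj3, a potassium channel subunit opened by the receptor, at 170 ± 34.7 units in High mice and 151 ± 41.1 units in Low mice (0.177, adjusted p = 0.551). Both chloride transporters, Slc12a5 and Slc12a2, which set the chloride gradient used by GABA-A receptors, were lower in value (-0.0915 and -0.0020, adjusted p = 0.553 and 0.996).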

How the data were processed

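Poly(A) RNA-seq libraries of 48 HS-CC mice, of laser-microdissected nucleus accumbens shell per the labels' protocols, were grouped by line and gender from the labels. What the authors deposited is a score: whole numbers that come from normalising and rounding read counts, judged from the file names and values. No count model was therefore fitted. The submitters' processing notes list edgeR 3.4.2, R 3.0.2, STAR 2.4.0, FastQC and CASAVA without role or order, and mm9 as build. How reads were counted, on which strand, with which annotation and how they were normalised is not given in the sources used here. Sequencing depth behind the normalised columns is therefore unknown, and no counting interval is given.

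Genes at 1 ppm or more (1 ppm = 14.06 units) in at least 12 libraries entered limma (version 3.58.1, R version 4.3.3) on log2(value + 0.5 ppm), with 4 group means and a mean-variance trend. Fold changes are on that scale and understate the change of low genes. Benjamini-Hochberg adjustment ran over all 15350 genes, with calls at an adjusted p under 0.05. Exon usage was tested with diffSplice (exons at 0.1 ppm or more, pseudocount 0.05 ppm). It assumes 1 spread for all exons of a gene, and on simulated data with unequal spreads it called too many genes. Correlations used log2 values centred on group means and two-sided permutation tests with 100000 resamples. Exon rows were matched to GENCODE M21 exons by the spacing of their starts, and no position was converted between builds.

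The members and gene lists were chosen with earlier results of these data known. Named genes were all 6 members, for each GABA list the called genes or otherwise the 2 with the smallest p, and the 3 genes most like each member; 2 of these, some further members of the family and 1 marker are not reported here. The limma and diffSplice fits were tested on simulated data.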

Additional observations from a re-analysis of the deposited data

How the results depend on the processing

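No paired analysis was possible because the labels pair no mice, and the replicate numbers only name samples. In none of the alternatives was any of the 6 genes called for any contrast, and all 252 values for single genes kept their side of the threshold; 8 of them, each with p of 0.558 or more, took the other sign. The line difference of Gabrg3 ran from 0.254 to 0.429 (log2) over 12 alternatives, with adjusted p from 0.208 to 0.846; the highest was over all exons but the last. Leaving out the last exon moved the composition: the shares of the summed level per kb became 3.31% for Gabrb1, 0.624% for Gabrb2, 3.92% for Gabrg1, 1.72% for Gabrg3, 87.6% for Gabbr1 and 2.86% for Gabbr2, and it turned the sign of the line difference of Gabrb2 (-0.141), Gabbr1 (-0.00497) and Gabbr2 (-0.0543); the cause was not tested. The library last-exon share as a covariate, all contrasts but the line difference without High male replicate 1, precision weights for exons, relations with other subunits, Gabrb2 without its long inner row, and the exons of equal length were chosen after seeing the data. Exon usage of Gabrb1 had a Simes p of 0.247 with precision weights. Small exon values limit what the exon comparisons can show.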

Other observations

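By the highest Pearson r over 48 mice on log2 values centred on group means, as a description, Gabrb1 was followed after Commd8 by Gpr19 (0.662) and Nasp (0.648), and the 3 genes nearest to Gabrb2 included Kcnd2 (0.816). The nearest genes of Gabrg1 were Tsr2 (0.794), Mgat2 (0.743) and Pid1 (0.721), those of Gabrg3 AW146154 (0.617), Nrsn1 (0.579) and Gm11149 (0.561), those of Gabbr1 Map2k1 (0.873), Scamp5 (0.873) and Dnajc5 (0.864), and those of Gabbr2 Amph (0.800), Edil3 (0.785) and Ptprn2 (0.778). The gene total of Gabrb1 rose with the library last-exon share (r = 0.44, rho = 0.45; permutation p = 0.00197 and 0.00134, adjusted p = 0.00394 and 0.00357; r = 0.47 without 2 mice), while that of Gabbr2 fell with it (r = -0.54, rho = -0.43; permutation p = 0.00011 and 0.00214, adjusted p = 0.000293 and 0.00428; r = -0.37 without 2 mice).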
